A study of Mus musculus with 9 samples.

Results

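The muscle nicotinic acetylcholine receptor and the proteins that gather it at the synapse were examined in muscle satellite cells, which lie beside the fibre as its resident stem cells. The members are 9 genes, Chrna1, Chrnb1, Chrnd, Chrng, Chrne, Rapsn, Musk, Dok7 and Lrp4, taken by gene name from the array's own annotation. Every non-control probe that carries 1 of these names was used, which gave 11 of the 55681 probes and 9 of the 36406 gene names on the array. The groups were satellite cells from Bmi1-deficient mice (KO) and from wild type mice (WT), all male, of the FVB strain and 2 months old. The sort on dissociated muscle took cells with integrin alpha 7 and CD34 on their surface and left out those with Sca1 or the lineage markers CD11b, CD45 and CD31, and their RNA was amplified before labelling with Cy3. Whether the KO allele was deleted in the whole animal or in 1 cell type, and how many mice went into a sample, are not given in the sources used here. No treatment is given for either group.

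The neuromuscular synapse is the contact through which a motor nerve drives a muscle fibre. Its receptor is a ring of alpha, beta and delta subunits with a gamma subunit in fetal muscle and an epsilon subunit in adult muscle. Agrin from the nerve binds Lrp4, which activates the receptor kinase MuSK, and MuSK with its adaptor Dok7 drives clustering of the receptor on its anchor rapsyn. In muscle these genes are controlled by myogenic factors that bind E-boxes (letters CANNTG) and, near the nerve, by GABP at the N-box (letters CCGGAA). Bmi1, the gene deleted here, codes for a Polycomb protein that helps to keep developmental genes silent.

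The promoters of 3 subunits are shown because they hold the letters of these elements at different places. They run from 250 bases before to 50 bases after the gene's start, are taken from RefSeq on GRCm38.p6 and are written 5′ to 3′ on the gene's strand. Capitals mark every CANNTG match and every CCGGAA match. The Chrna1 promoter is chr2:73580289-73580588 on the minus strand, the Chrng promoter is chr1:87205561-87205860 on the plus strand, and the Chrne promoter is chr11:70619145-70619444 on the minus strand.
Chrna1 promoter: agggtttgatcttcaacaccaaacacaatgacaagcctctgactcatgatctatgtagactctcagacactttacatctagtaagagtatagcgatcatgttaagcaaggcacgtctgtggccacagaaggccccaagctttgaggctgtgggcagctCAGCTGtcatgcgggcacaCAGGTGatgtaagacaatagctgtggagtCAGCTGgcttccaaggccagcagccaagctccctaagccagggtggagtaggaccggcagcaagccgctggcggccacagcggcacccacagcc
Chrng promoter: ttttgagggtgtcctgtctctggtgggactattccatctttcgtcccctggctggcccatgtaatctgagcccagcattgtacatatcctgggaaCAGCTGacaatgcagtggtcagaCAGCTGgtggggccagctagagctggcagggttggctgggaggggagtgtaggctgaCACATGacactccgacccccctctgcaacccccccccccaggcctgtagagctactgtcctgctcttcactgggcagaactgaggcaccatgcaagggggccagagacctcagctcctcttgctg
Chrne promoter: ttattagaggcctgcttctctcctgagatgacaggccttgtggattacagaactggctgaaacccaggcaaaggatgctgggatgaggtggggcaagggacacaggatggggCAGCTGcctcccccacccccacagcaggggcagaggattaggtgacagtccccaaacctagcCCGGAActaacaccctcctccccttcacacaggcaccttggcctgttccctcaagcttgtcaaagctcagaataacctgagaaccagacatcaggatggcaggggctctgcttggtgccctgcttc

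CANNTG reads the same on both strands as a pattern, CAGCTG is 1 of the forms it takes, and CCGGAA was searched on both strands. The Chrna1 promoter held 3 CANNTG matches, whose first bases lie at -92, -73 and -44 from the start, and the Chrng promoter held 3, at -155, -132 and -75. In both genes 2 of the 3 matches read CAGCTG. The Chrne promoter held 1 CANNTG match, at -138, and it was the only member promoter with CCGGAA, at -76. Among the 32851 promoters of the same table, 17.6% held 3 or more CANNTG matches, 1.90% held 2 or more CAGCTG matches, and 14.9% held CCGGAA. The Musk and Chrnb1 promoters also held 3 CANNTG matches each, and the 2 promoters of Dok7 held 1 and 0. In all, 6 of the 9 member genes were matched in this table, and the other genes are Chrnd, Rapsn and Lrp4. A match of letters is a description of the sequence and not of binding.

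The probe for the gamma subunit is shown because this subunit marks the fetal receptor, and the first Musk probe because it joins distant bases of the genome. Array coordinates are in mm9. The Chrng probe covers chr1:89106072-89106353 on the plus strand, and the Musk probe chr4:58386538-58390272 on the plus strand. The Chrng probe thus spans 282 bases and the Musk probe 3735 bases of the genome, so each joins parts of a spliced transcript.
Chrng probe A_51_P288010: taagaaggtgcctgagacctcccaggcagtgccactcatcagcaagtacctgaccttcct
Musk probe A_51_P334419: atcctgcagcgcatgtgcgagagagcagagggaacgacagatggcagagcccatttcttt

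There were 6 KO arrays and 3 WT arrays. The KO arrays fell into 3 pairs that share a number in their descriptions, and arrays of a pair correlated at 0.994 to 0.996, against 0.962 to 0.979 for the 33 other pairs of arrays. The SD of 1 array within these pairs was 0.135 to 0.157, near that between repeat spots of 1 array (0.0889 to 0.121), so each pair was averaged and counted as 1 of 3 KO samples, although the titles number all 6 KO arrays as biological replicates. The genotype field of KO replicate 1 reads wild type, while its title, source and description say KO. That array correlated at 0.995 with KO replicate 4, its partner, and at 0.962 to 0.970 with the WT arrays. The KO mean of both Bmi1 probes was no lower than the WT mean. The first differed by 0.10 (exact permutation p = 0.4) and the second by 0.21 (exact permutation p = 0.2). The deleted piece of the gene is not given, so these probes do not check the labels. The share of the 59305 non-control spots with a signal well above background ran over the arrays from 71.9% to 75.8%, and 0 spots were saturated.

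Levels are log2 signals relative to the 75th percentile of the same array, so a value of 0 lies at that percentile. Such a level depends on the probe, and levels of different probes are not set against each other. Of the 11 member probes, 9 were well above background on all 9 arrays. The exceptions were Chrne, on 2 of 6 KO arrays and 2 of 3 WT arrays, and Dok7, on 4 of 6 KO arrays and 3 of 3 WT arrays. All 11 passed the filter on dim probes.

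No member probe passed the test between KO and WT. With limma's moderated test and Benjamini-Hochberg adjustment over 42983 probes at a threshold of 0.05, 0 of the 11 were called, with adjusted p between 0.313 and 0.980, where 0.0489% of all probes were. At an unadjusted p under 0.05 there were 2 member probes, the second Chrna1 probe and the Lrp4 probe, where 10.7% of all probes pass. The same 2 were the only ones whose KO and WT samples did not overlap, with KO higher in both, where 16.5% of all probes do not overlap in either direction and 8.58% with KO higher. The KO mean was higher for 7 probes and lower for 4, where 48.0% of all probes were higher in KO. The median difference was 0.30, against -0.01 over all probes. These are values over probes and not over genes, since Chrna1 and Musk enter with 2 probes each, all higher in KO. No shift of the member genes is read from them.

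**Figure D1:**
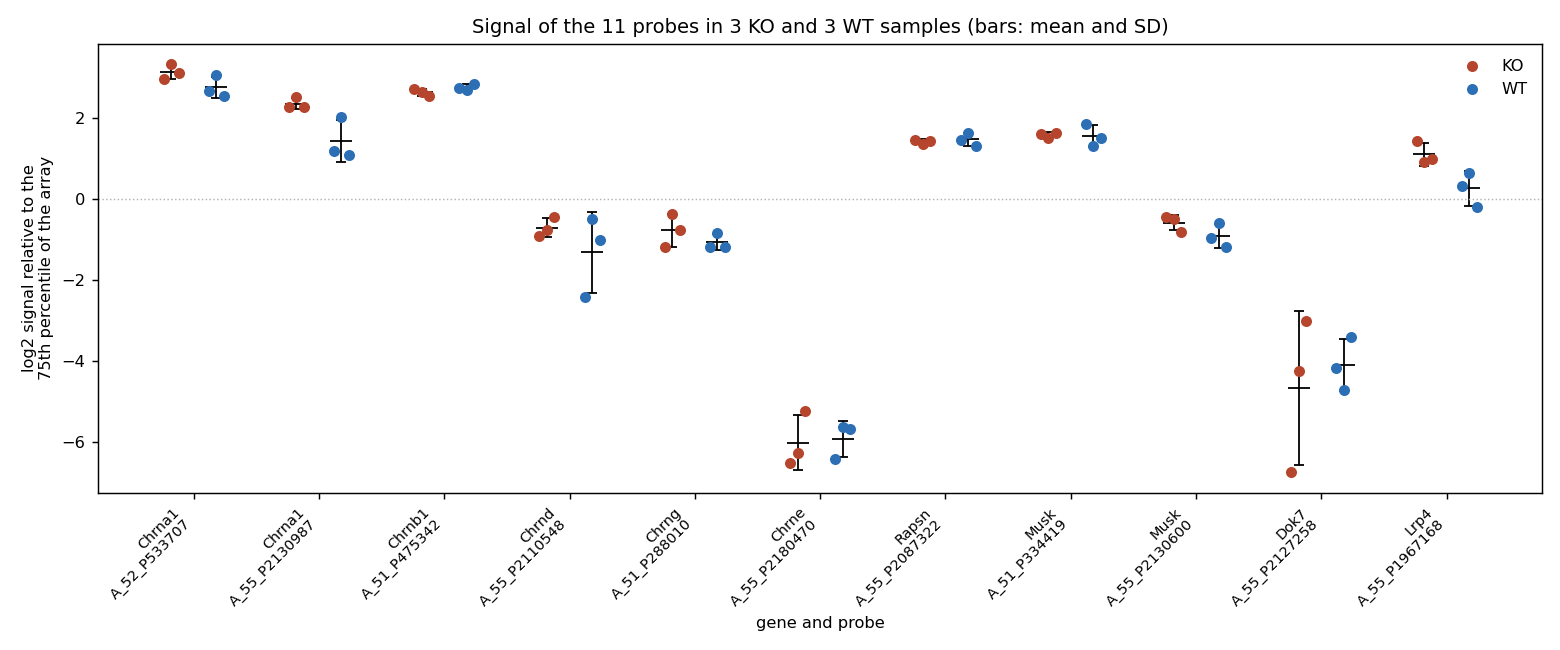
Log2 signal relative to the array's 75th percentile (vertical axis) of each of the 11 member probes, with points for the 3 KO samples and the 3 WT samples and bars for mean and SD. The KO points lie wholly above the WT points for the second Chrna1 probe and for Lrp4, while the groups overlap for the other 9 probes, and Dok7 has the widest spread among KO samples.

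Chrna1 codes for the alpha subunit, which carries the acetylcholine binding sites. It has 2 probes on the minus strand of chromosome 2, A_52_P533707 at 73404112 to 73404171 and A_55_P2130987 at 73401389 to 73401448, which lie 2723 bases apart in the transcript. The first read 2.98, 3.33 and 3.10 in KO samples 1 to 3, against 2.68, 3.05 and 2.54 in WT samples 1 to 3. WT sample 2 lies within the KO range, so the groups overlap. The KO mean was 3.14 ± 0.18 and the WT mean 2.76 ± 0.27 (SD, n = 3 each), a difference of 0.38 ± 0.19 (SE) with a 95% interval of -0.08 to 0.84 and a limma adjusted p of 0.555 (exact permutation p = 0.2).

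The second Chrna1 probe read 2.27, 2.52 and 2.28 in KO samples, against 1.19, 2.03 and 1.10 in WT samples. All 3 KO samples were above all 3 WT samples, and WT sample 2 lay nearest to them. The means were 2.36 ± 0.14 in KO and 1.44 ± 0.51 in WT, a difference of 0.92 ± 0.27 (SE; 95% interval 0.25 to 1.59), or 1.89-fold, with a limma adjusted p of 0.313. By exact permutation p was 0.1, the lowest value that 20 splits of 3 against 3 samples allow, so no single probe can reach 0.05 by that test. Only the fit that takes all 9 arrays as separate samples, with 2 arrays for each KO sample, put this probe past the threshold (limma adjusted p = 0.0418).

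Both Chrna1 probes were thus higher in KO by value, by unequal amounts. The second minus the first probe was -0.71, -0.81 and -0.82 within KO samples, against -1.49, -1.02 and -1.43 within WT samples. These values do not overlap, and their change of 0.54 had an exact permutation p of 0.1, the smallest possible. This comparison of the 2 probes was added after their values were seen.

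Chrnb1 codes for the beta subunit, and its probe A_51_P475342 lies on chromosome 11 at 69598674 to 69599242 on the minus strand, across 569 bases of the genome. It read 2.72, 2.65 and 2.55 in KO samples, against 2.74, 2.70 and 2.85 in WT samples. The spread within each group was small, with a KO mean of 2.64 ± 0.086 and a WT mean of 2.76 ± 0.076, and the groups overlap. The difference of -0.12 ± 0.12 (95% interval -0.42 to 0.18) had a limma adjusted p of 0.816. Chrnb1 was the member with the narrowest interval on this difference.

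Chrnd codes for the delta subunit, and its probe A_55_P2110548 lies at 89096585 to 89096644 on the plus strand of chromosome 1. It read -0.91, -0.76 and -0.44 in KO samples, against -2.42, -0.49 and -0.999 in WT samples. WT sample 1 was far lower than all other samples, WT sample 2 lay inside the KO range, and WT sample 3 lay just below it. The means were -0.70 ± 0.24 in KO and -1.31 ± 0.999 in WT, a difference of 0.60 ± 0.50 (95% interval -0.61 to 1.82; limma adjusted p = 0.755). Without WT sample 1 the difference was 0.04.

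Chrng, the fetal gamma subunit, read -1.18, -0.37 and -0.75 in KO samples, against -1.18, -0.84 and -1.17 in WT samples. KO samples 2 and 3 were above all WT samples, and KO sample 1 was level with the lowest of them. The difference was 0.30 ± 0.24 (95% interval -0.29 to 0.88; limma adjusted p = 0.746). Chrne, the adult epsilon subunit, read -6.52, -6.28 and -5.23 in KO samples, against -6.42, -5.63 and -5.68 in WT samples. Most of these arrays were not well above background, so these values are near the floor of the measurement. The Chrne difference was -0.10 ± 0.40 (95% interval -1.08 to 0.88; limma adjusted p = 0.965).

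The balance of the fetal and adult subunits was compared as the log2 signal of Chrng minus that of Chrne within each sample, which shows unequal change and not a ratio of RNA amounts. It was 5.35, 5.91 and 4.48 in KO samples, against 5.25, 4.799 and 4.51 in WT samples. In KO samples 1 and 2 and in WT sample 1 the Chrne signal was not well above background on any array, so these 3 values are uncertain and no order is read from them. The change of 0.39 had an exact permutation p of 0.5 and is uncertain for the same reason.

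**Figure D2:**
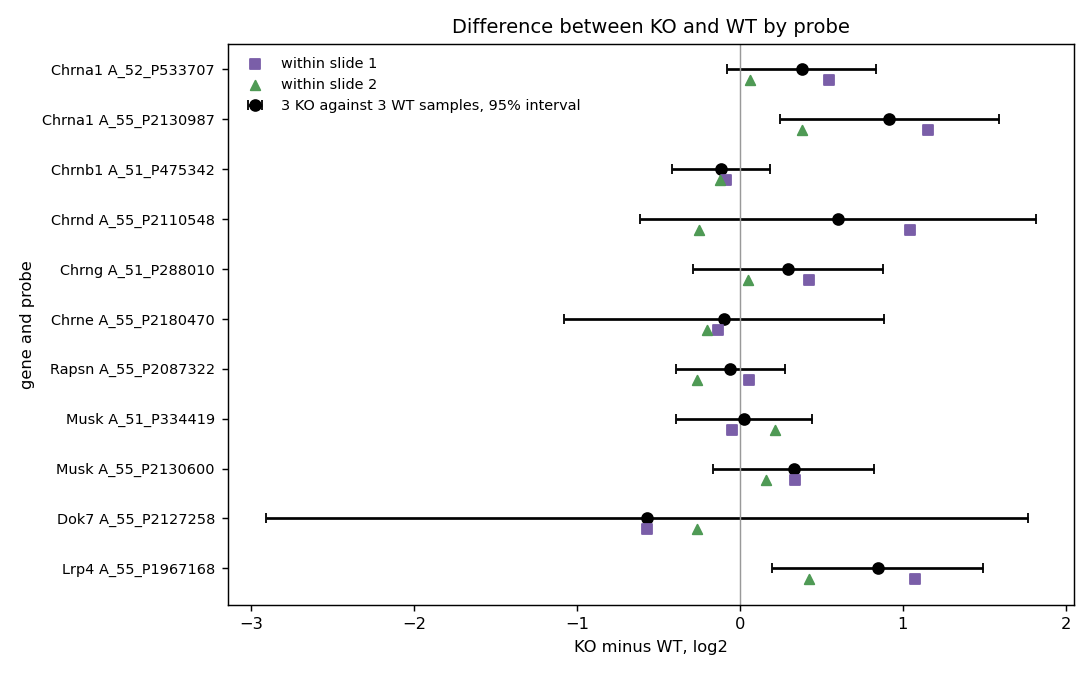
KO minus WT difference (log2, horizontal axis) of each member probe, with black points and 95% intervals for 3 KO against 3 WT samples, and squares and triangles for the values within slide 1 and slide 2. The intervals of the second Chrna1 probe and of Lrp4 lie above 0 before adjustment. The slide 1 value lies to the right of the slide 2 value for every probe but the first Musk probe and Dok7.

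Rapsn codes for rapsyn, the scaffold that anchors receptors under the membrane, and its probe A_55_P2087322 lies at 90885826 to 90885885 on the plus strand of chromosome 2. It read 1.47, 1.35 and 1.44 in KO samples, against 1.47, 1.65 and 1.32 in WT samples. The KO samples lay inside the WT range. The difference was -0.06 ± 0.14 (95% interval -0.39 to 0.27; limma adjusted p = 0.932).

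Lrp4 codes for the agrin receptor that switches on MuSK, and its probe A_55_P1967168 lies at 91353566 to 91353625 on the plus strand of chromosome 2. It read 1.44, 0.92 and 0.98 in KO samples, against 0.34, 0.65 and -0.19 in WT samples. All KO samples were above all WT samples, with KO sample 1 the highest and WT sample 3 the lowest. The means were 1.11 ± 0.28 in KO and 0.27 ± 0.42 in WT (SD, n = 3 each), a difference of 0.85 ± 0.26 (SE; 95% interval 0.20 to 1.49), or 1.80-fold. The limma adjusted p was 0.335 and the exact permutation p was 0.1.

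Musk codes for the receptor kinase that Lrp4 activates, and it has 2 probes on the plus strand of chromosome 4. The first, the spliced probe shown above, read 1.61, 1.52 and 1.64 in KO samples, against 1.86, 1.32 and 1.51 in WT samples. The second, A_55_P2130600 at 58387070 to 58387129, read -0.44, -0.50 and -0.80 in KO samples, against -0.97, -0.58 and -1.18 in WT samples. The KO samples were closer to each other than the WT samples at both probes, and the groups overlap at both. These spreads are not alike, since a KO value is the mean of 2 arrays, 1 on each slide, and a WT value is 1 array. At the second probe the 2 arrays of a KO sample differed by 0.29 to 0.33. The differences were 0.02 ± 0.17 (95% interval -0.39 to 0.44; limma adjusted p = 0.980) and 0.33 ± 0.20 (95% interval -0.16 to 0.82; limma adjusted p = 0.647). The change of the second minus the first Musk probe, 0.31, had an exact permutation p of 0.4. The second probe lies inside the stretch of genome that the first spans, and the array assigns the 2 to different transcripts. They may thus read different forms of the Musk transcript.

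Dok7 codes for the adaptor that binds MuSK inside the cell, and its probe A_55_P2127258 lies at 35430414 to 35430473 on the plus strand of chromosome 5. It read -6.74, -4.24 and -3.004 in KO samples, against -4.16, -4.71 and -3.41 in WT samples. KO sample 1, whose 2 arrays were both not well above background, was the lowest of all samples and KO sample 3 the highest. The difference was -0.57 ± 0.96 (95% interval -2.91 to 1.77; limma adjusted p = 0.898), and it was 0.47 without KO sample 1. The interval of Dok7 was the widest of the 11 probes.

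**Figure D3:**
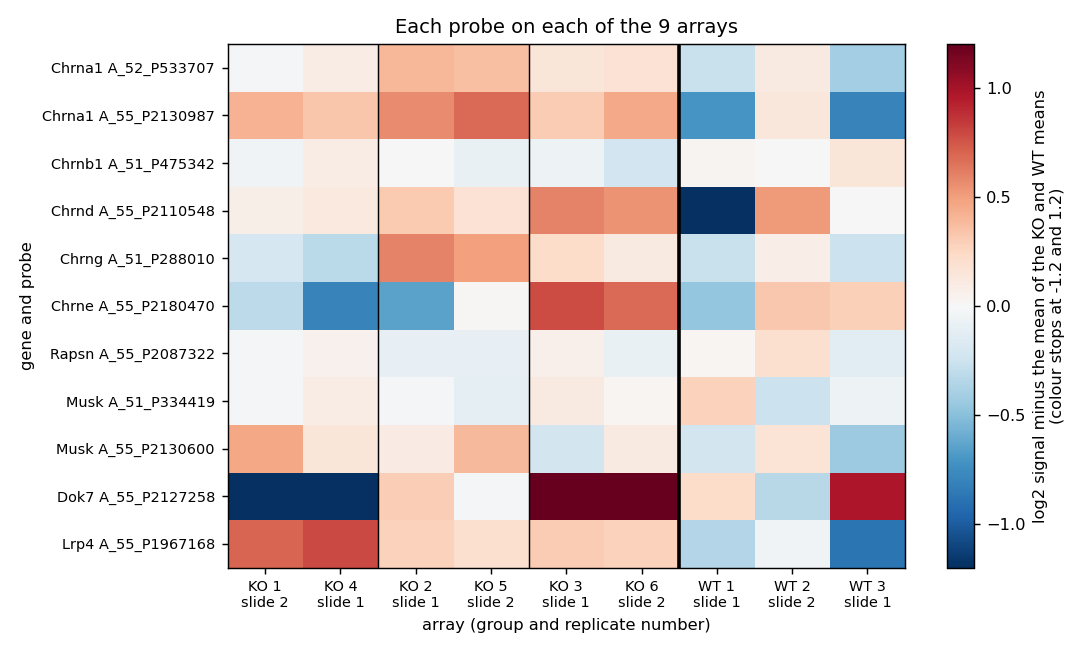
Each of the 11 member probes (rows) on each of the 9 arrays (columns, KO to the left of WT, with the slide beneath), as log2 signal minus the midpoint of the KO and WT means of that probe. Arrays of 1 KO sample share their colours in most rows, and WT replicate 2, on slide 2, is nearer to the KO arrays than WT replicates 1 and 3 for both Chrna1 probes and Lrp4.

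The arrays were on 2 slides. Slide 1 held WT replicates 1 and 3 and KO replicates 2, 3 and 4, and slide 2 held WT replicate 2 and KO replicates 1, 5 and 6, so each KO sample had 1 array on each slide. Within slide 1 and slide 2 the KO minus WT difference was 0.55 and 0.06 for the first Chrna1 probe, and 1.16 and 0.38 for the second. It was 1.07 and 0.43 for Lrp4, 1.05 and -0.25 for Chrnd, and 0.43 and 0.05 for Chrng. The differences of the second Chrna1 probe and of Lrp4 had the same sign on both slides. Both slides hold the same 3 KO samples, and at these probes all KO samples were above all WT samples. This sign is thus no independent support. Slide 2 has 1 WT array, so no test was made there. With the slide as a block the differences of the second Chrna1 probe and of Lrp4 were 0.77 (limma adjusted p = 0.251) and 0.75 (limma adjusted p = 0.450). Between the 2 arrays of a KO sample, 1 on each slide, the second Chrna1 probe differed by 0.089 to 0.145 and Lrp4 by 0.032 to 0.096.

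Other genes of the synapse were read from 3 lists, with 1 probe per gene, the brightest kept one, in a limma fit of 28365 genes. In that fit 0.137% of genes were called, 11.0% had an unadjusted p under 0.05, 16.7% had KO and WT samples that did not overlap, and 47.1% were higher in KO. Of 52 listed genes 49 were measured, of which 29 were higher and 20 lower in KO, 0 passed the adjusted test, 8 had an unadjusted p under 0.05, and 12 (24.5%) did not overlap. Vezt, counted as higher, was well above background on 4 of 6 KO arrays and 0 of 3 WT arrays. It passed the filter through KO arrays alone, so its direction is not settled. The median difference of the 49 genes was 0.13, against -0.02 over all genes.

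All 35 genes of agrin and MuSK signalling and of the synaptic matrix passed the filter, Vezt through KO arrays alone. The 6 with an unadjusted p under 0.05 were all higher in KO. Dtna, which codes for the dystrobrevin that stabilises receptors at the synapse, read -1.18, -0.87 and -0.97 in KO samples, against -2.41, -2.36 and -2.99 in WT samples (difference 1.58 ± 0.21, limma adjusted p = 0.076). Its groups lay more than 1 log2 unit apart. Lama4, a laminin chain of synaptic and vascular basement membrane, read 2.39, 2.18 and 1.96 in KO samples, against 1.07, 1.09 and 1.31 in WT samples (difference 1.02 ± 0.16, limma adjusted p = 0.097). Nid2, a basement membrane protein, differed by 0.77 ± 0.13 (limma adjusted p = 0.109) and Lamb2, the laminin beta chain concentrated at the synapse, by 0.40 ± 0.11 (limma adjusted p = 0.260). These 4 genes did not pass the threshold, though their KO samples were all above their WT samples. Agrn, the gene for agrin itself, read 3.67, 3.68 and 3.76 in KO samples, against 3.79, 3.68 and 4.06 in WT samples (difference -0.14 ± 0.14, limma adjusted p = 0.802). Among the lower genes the smallest p-values were those of Ptpn11, a phosphatase (difference -0.23 ± 0.11, limma adjusted p = 0.521), and of the chaperone Hsp90ab1 (difference -0.24 ± 0.13, limma adjusted p = 0.584).

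The list of neuregulin signalling and N-box factors had 7 of 8 genes measured, 5 of them higher in KO. Etv4, an ETS factor, read 0.17, 0.36 and 0.04 in KO samples, against -0.62, -0.14 and -0.26 in WT samples (difference 0.53 ± 0.17, limma adjusted p = 0.345). The list of genes that follow denervation and electrical activity had 7 of 9 measured, 2 of them higher. Ncam1, an adhesion molecule, read 3.99, 4.01 and 4.02 in KO samples, against 4.42, 4.45 and 4.47 in WT samples (difference -0.44 ± 0.10, limma adjusted p = 0.201), with all KO samples below all WT samples. Myog, the myogenic factor that drives receptor genes after denervation, read 1.54, 2.76 and 3.64 in KO samples, against 3.11, 2.65 and 3.09 in WT samples (difference -0.30 ± 0.52, limma adjusted p = 0.897). The KO samples held both the lowest and the highest Myog value.

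Of 18 neuronal, muscarinic and chaperone genes of acetylcholine receptors, 11 were measured, 4 of them higher in KO, with a median difference of -0.05. Tmem35a, a chaperone of neuronal receptors, read -1.40, -1.24 and -1.48 in KO samples, against -1.08, -0.63 and -0.90 in WT samples (difference -0.50 ± 0.16, limma adjusted p = 0.330). Ric3, another receptor chaperone, was well above background on 3 of 6 KO arrays and on 0 of 3 WT arrays. It passed the filter through KO arrays alone, and no fold is given for it.

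**Figure D4:**
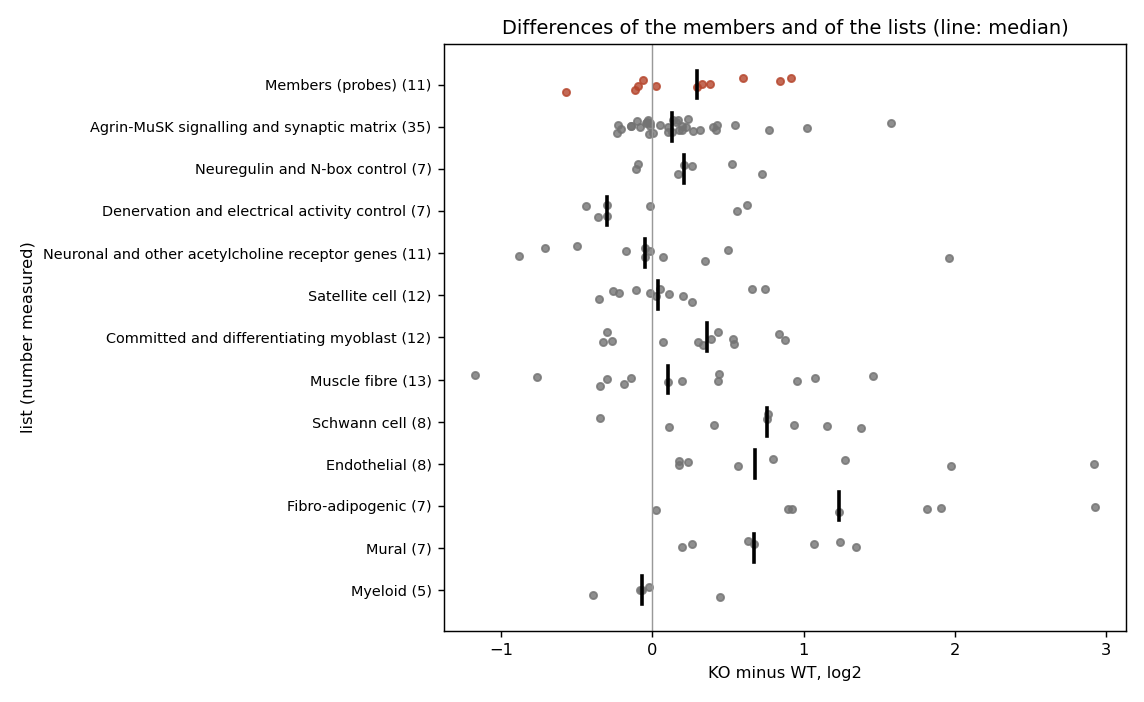
KO minus WT differences (log2, horizontal axis) of the 11 member probes and of the measured genes of each list (points, 1 probe per gene in the lists), with a line at each median. The members' median is 0.30, the synaptic matrix list's is 0.13 and the denervation list's is -0.30, while the fibro-adipogenic list's is 1.23.

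Detection of markers does not by itself establish the labelled identity of the sorted cells. All 12 myoblast, 8 measured Schwann cell and 7 mural markers were well above background on all arrays. All 12 satellite cell markers were so too, with a median difference of 0.04, 7 of them higher and 5 lower in KO. In 4 of the 12 (33.3%) the KO and WT samples did not overlap, where 16.7% of all genes do not. Of these, Sdc4 and Cdh15 were higher in KO, and Cxcr4 and Fgfr4 were lower. Sdc4, the surface proteoglycan syndecan 4, read 3.25, 3.13 and 3.28 in KO samples, against 2.61, 2.45 and 2.36 in WT samples (difference 0.75 ± 0.13, limma adjusted p = 0.107). Pax7, the defining factor, read 3.04, 2.82 and 2.60 in KO samples, against 3.001, 2.72 and 2.67 in WT samples. The 12 myoblast markers had a median difference of 0.36 and 0 called (1 at an unadjusted p under 0.05). Myod1, the myogenic factor that binds E-boxes, read 2.91, 3.07 and 2.99 in KO samples, against 2.95, 2.76 and 3.05 in WT samples. The 13 measured muscle fibre markers had a median difference of 0.10, with summed levels of 5.42 to 5.73 in KO samples and 5.31 to 5.72 in WT samples. A summed level, here and below, is the log2 of the added linear signals of a list's probes. The brightest probes weigh most in it, so it does not measure how much of a cell type was present. Within the fibre list KO sample 1 was the highest of all samples for some markers and the lowest for others. Tnnt3, a fast troponin, read 2.60 in KO sample 1 and -0.0099 and -0.68 in KO samples 2 and 3, against -0.35, -0.51 and -0.45 in WT samples. Tnnc2, another fast troponin, read 1.94 in KO sample 1 and -1.67 and -1.85 in KO samples 2 and 3, against -0.71, -1.14 and -1.03 in WT samples. Myh2, Tnni2, Mb, Acta1 and Ckm were also highest in KO sample 1, while Myh4, Atp2a1, Pvalb, Ryr1 and Actn3 were lowest there. KO sample 1 was also the highest sample for Lrp4 and the lowest for Dok7 and Myog. Without KO sample 1 the KO minus WT difference was 0.96 for the second Chrna1 probe (limma adjusted p = 0.523) and 0.68 for Lrp4 (limma adjusted p = 0.594).

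The lists of fibro-adipogenic, mural, Schwann and endothelial cells had positive median differences (1.23, 0.67, 0.76 and 0.68) beside Chrna1 and Lrp4. KO and WT samples did not overlap for 5 of 7 fibro-adipogenic (71.4%), 3 of 7 mural (42.9%) and 5 of 8 Schwann cell markers (62.5%). For endothelial markers this held for 1 of 8 (12.5%), and over all genes for 16.7%. The sort gated out cells with CD31, which endothelial cells carry, and cells with Sca1, which fibro-adipogenic cells carry. All 7 fibro-adipogenic markers were higher in KO, with summed levels of 7.24 to 7.41 in KO samples and 6.70 to 6.86 in WT samples, and 5 of them had an unadjusted p under 0.05. Col1a1, a collagen chain, read 3.31, 3.29 and 3.996 in KO samples, against 1.24, 1.82 and 1.80 in WT samples (difference 1.91 ± 0.26, limma adjusted p = 0.078). The defining gene Pdgfra, 1 of the 5, was well above background on 6 of 6 KO arrays and 0 of 3 WT arrays. It so passed the filter through KO arrays alone, with a KO mean at least 3.49-fold the WT bound. Pdgfra thus enters each count of this list as a description and not as support. Ly6a, the gene for Sca1, read -1.61, -5.74 and -3.32 in KO samples, against -5.35, -4.79 and -5.99 in WT samples (difference 1.82 ± 1.02, limma adjusted p = 0.604), and its groups overlap. Ly6a was well above background on 2 of 3 WT arrays, so the size of this difference is uncertain. All 7 mural markers were higher, with summed levels of 4.87 to 5.06 in KO samples and 4.49 to 4.96 in WT samples, and Pdgfrb, the pericyte receptor, was called (difference 1.35 ± 0.11, limma adjusted p = 0.038). Of 8 measured Schwann cell markers 7 were higher, with summed levels of 6.02 to 6.09 in KO samples and 5.69 to 5.94 in WT samples, and Mbp, a myelin protein, differed by 1.38 ± 0.18 (limma adjusted p = 0.076). All 8 endothelial markers were higher, with summed levels of 2.27 to 2.90 in KO samples and 1.93 to 2.33 in WT samples. Tie1 was well above background on 4 of 6 KO arrays and 1 of 3 WT arrays, and Flt1 on 2 of 3 WT arrays. Pecam1, the gene for CD31, read -1.78, -3.25 and -3.25 in KO samples, against -4.36, -3.24 and -6.60 in WT samples (difference 1.97 ± 0.90, limma adjusted p = 0.508), and KO sample 1 was the highest for both gate genes. Pecam1 was well above background on 2 of 3 WT arrays, so its difference, like those of Tie1 and Flt1, is uncertain near the floor. Of 5 measured myeloid markers 1 was higher, Cd68 (difference 0.45 ± 0.17, limma adjusted p = 0.420). Ptprc (CD45) read -3.69, -3.68 and -3.24 in KO samples, against -3.21, -3.18 and -4.15 in WT samples. The probe for Itgam (CD11b), which the sort gated out, read 6.98, 6.85 and 7.001 in KO samples, against 7.11, 6.88 and 7.08 in WT samples. The part of these marker levels in the differences of Chrna1 and Lrp4 was not tested. In such bulk samples, fewer cells of a type and less RNA per cell cannot be told apart.

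The members did not share 1 pattern over the 6 samples. The 36 pairs of member genes, each at its brightest probe, had Pearson r from -0.78 to 0.86 with a median of -0.03, and 17 were above 0. The highest was Chrna1 with Chrng, and Chrna1 with Lrp4 had r of 0.74, while Chrna1 with Chrnb1 had r of -0.78. Among 5008 genes with a range of at least 1 log2 unit, those most like Chrna1 at its first probe were Psapl1 (r of 0.996), Abi3bp (0.995), Mirg (0.991), Arfgef3 (0.984) and 4930480K23Rik (0.980). Those most like Lrp4 were Map3k8 (0.994), Alpk1 (0.992), Tspan18 (0.992), Aqp9 (0.992) and Slc25a35 (0.990). All these values come from the same 6 samples, and with so few points the highest r among so many genes is a description only. Arfgef3 read -7.92 and -8.23 in WT samples 1 and 3, and Map3k8 read -6.15 in WT sample 3. The lowest signals well above background there were -5.77 in WT sample 1 and -5.90 in WT sample 3. The r of these 2 genes thus rests in part on values near the floor. Tspan18, a tetraspanin, read 2.09, 1.32 and 1.55 in KO samples, against 0.62, 0.94 and 0.09 in WT samples. The order of its 6 samples was that of Lrp4.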

How the data were processed

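Gene expression was measured on 1-colour Agilent arrays, 6 of KO and 3 of WT satellite cells. The authors deposited 1 scanner file per array, which holds the linear intensity of each spot. Agilent Feature Extraction 10.7.3.1 made the processed signal by background subtraction and removal of spatial trends, with positive surrogates for dim spots, per the file headers. The authors' deposited table holds log2 values, with a column median of 7.806 and a correlation of 0.999976 with a normexp correction (offset 50) followed by quantile normalization. Its method is not stated in these sources, and it served as an alternative.

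Processed signals were put on the log2 scale and centred on the array's 75th percentile of non-control spots. Outlier spots (93 to 148 per array) were left out and repeat spots averaged. This left 35 values to be filled from the same probe on the remaining arrays, 0 of them in members. A probe entered the fit if at least 3 of the 9 arrays showed it well above background, which held for 42983. KO arrays that share a description number were averaged. The comparison used limma 3.58.1 (lmFit, eBayes) under R 4.3.3, with Benjamini-Hochberg adjustment at 0.05. Single probes also had an exact two-sided permutation test, with 20 orderings of 3 against 3. The fit was tested on simulated data. The labels do not tie samples to animals, so the spread behind each p-value may be technical. Precision is limited by how few arrays there are.

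The members, lists and the averaging of arrays were chosen with earlier results of these data known. The text names every member probe. It names at most 4 genes per list and direction by unadjusted p, genes of the myogenic and fibre lists as levels, and the 5 genes most like Chrna1 (highest mean probe signal over the 6 samples, not an amount of RNA) and most like Lrp4 (largest difference at a brightest probe). Ly6a was named after its values were seen, as a gene of the sort, and Vezt for how it passed the filter. Symbols were matched through RefSeq tables of GRCm38.p6. WT and KO numbers were not taken as pairing, since deviations of same-numbered samples correlated at -0.03, 0.02 and 0.02. Alternatives were other background corrections, normalizations, filters, blocks and samples left out.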

Additional observations from a re-analysis of the deposited data

How the results depend on the processing

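The number of member probes called by limma was 0 in all fits but the one of 9 separate arrays, which called 1, the second Chrna1 probe. Over the whole array 21 probes were called. The count was 1639 with 9 separate arrays, 610 when the sample was a random block, 282 under normexp, 208 with the authors' deposited table, 62 for probes well above background on all 9 arrays, 39 with 1 probe per gene, 1 with the slide as a block and 0 within slide 1 (4335 at an unadjusted p under 0.05). Leaving out 1 sample or array gave 0 to 21. It was 0 without KO sample 2, WT sample 1, WT sample 2 or WT sample 3 (3739 to 4733 at an unadjusted p under 0.05), 3 without KO sample 1, 2 without KO sample 3, and 21 without KO replicate 1, a setting chosen after seeing the data. With the replicate number as a block 0 probes were called (4361 at an unadjusted p under 0.05), and it changed no call among the members. Of the synapse lists, 5 genes were called with 9 separate arrays, 3 with the random block, 2 with normexp and 2 with the authors' table, and 0 in the other fits.

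The differences of both Chrna1 probes, Chrnb1, Chrng, the second Musk probe and Lrp4 kept their sign in every setting, and so did Chrng minus Chrne (0.06 to 0.78 when 1 sample was left out). These settings reuse the same samples, so a kept sign is no independent support. Chrnd turned to -0.25 within slide 2. Rapsn turned to 0.0588 and the first Musk probe to -0.0484 within slide 1. When 1 sample was left out, Chrne ranged from -0.49 to 0.16, Rapsn from -0.14 to 0.0227, the first Musk probe from -0.10 to 0.17 and Dok7 from -1.40 to 0.47. The cause was not tested. Chrne and Dok7 are limited by signals near background. No test was made within slide 2, which has 1 WT array.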
